A study of Mus musculus with 6 samples.

Results

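The fibrillar and fibril-associated collagens described here were 10 genes, taken by symbol from the 29616 genes listed in the deposited table. They were the type I chains Col1a1 and Col1a2, the type III chain Col3a1, the type V chains Col5a1, Col5a2 and Col5a3, the type XI chains Col11a1 and Col11a2, and the fibril-associated collagens Col12a1 and Col14a1. The list follows gene families and its rule used no measured value, although earlier results of these data were known when it was drawn up, and each symbol matched 1 Ensembl identifier. Of the 10 genes, 9 reached the mean of 10 normalized counts that was required for testing, and Col14a1 did not.

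RNA sequencing was performed on 3 libraries from control C57BL/6 mice and 3 libraries from C57BL/6 mice that received dexamethasone, a glucocorticoid drug, once a day from 8 weeks of age (dose 0.08 µg/g, treatment time 4 weeks). Controls received saline and no transgene was named for these animals. The labels call the material bone cells, whereas the study describes sorting of Osteocalcin-positive cells from bones cleared of marrow. The question was how gene expression in these cells differed after glucocorticoid treatment that leads to bone loss.

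Fibrillar collagens are the rope-like proteins that give bone, tendon and skin their tensile strength. Their chains wind around each other in a helix that requires glycine at regular intervals, are secreted as procollagens, and assemble outside the cell into fibrils onto which mineral is laid down in bone. Type I collagen, made by osteoblasts, is the bulk of the organic bone matrix. Type V and type XI chains help to start a fibril and limit its diameter, type III forms thinner fibrils and is common in soft connective tissue, and types XII and XIV sit on the fibril surface and link it to other matrix molecules.

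The repeat that defines the family can be read in the coding sequence as a glycine codon, GGN, at intervals of 3 codons. In the GENCODE M21 transcripts, all 8 fibrillar chains held a main uninterrupted run of such triplets, whose length was between 337 triplets in Col5a3 and 344 in Col3a1. Col12a1 and Col14a1, which have short collagenous stretches between globular domains, had no run longer than 32 triplets. The 84 triplets in their runs of 5 or more took up 8.22% of the 3065 coding codons of Col12a1 and 14.02% of the 1798 of Col14a1, against 73.3% of the 1453 coding codons of Col1a1. The first 12 triplets of the longest run are shown for the chain with the most reads per kilobase and for the chain that rose. They are also shown for the chain with the largest decrease and for a fibril-associated collagen. The glycine codon that opens each triplet is in capitals. The stretches are sense-strand coding sequence from the GRCm38 annotation.
Col1a2: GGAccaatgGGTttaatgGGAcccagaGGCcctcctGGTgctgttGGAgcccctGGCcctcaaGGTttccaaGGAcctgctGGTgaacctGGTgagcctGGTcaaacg
Col5a3: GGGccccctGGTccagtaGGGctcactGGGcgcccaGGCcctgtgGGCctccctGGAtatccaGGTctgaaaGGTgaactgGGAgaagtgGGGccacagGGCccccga
Col11a1: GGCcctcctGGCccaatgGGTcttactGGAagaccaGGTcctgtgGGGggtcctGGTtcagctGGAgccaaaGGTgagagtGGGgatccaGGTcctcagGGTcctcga
Col12a1: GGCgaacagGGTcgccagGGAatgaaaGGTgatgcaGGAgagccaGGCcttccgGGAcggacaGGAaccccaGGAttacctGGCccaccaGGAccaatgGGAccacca

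The libraries held 72596611 to 89910728 reads in genes, and genes are compared below as normalized counts, the reads of a gene divided by a size factor for its library. The osteocalcin gene Bglap was low, at 98.2 to 122 normalized counts in the controls and 9.54 to 15.1 with dexamethasone. Bglap2, also an osteocalcin gene, had 300 to 339 in the controls and 29.6 to 33.7 with dexamethasone. Sost and Fgf23 were not among the genes listed. Of the 10 osteoblast markers examined, all were tested, 7 fell and 1, Spp1 (osteopontin), rose. Their summed level was 66107 to 69685 normalized counts in the controls and 1258581 to 1314007 with dexamethasone, nearly all of it Spp1 in the latter. In such bulk libraries, fewer cells of a type and less RNA per cell cannot be told apart.

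Dexamethasone libraries held less collagen message of nearly every fibrillar type. Of the 9 tested collagens, 6 fell and 1 rose by the criterion of a limma adjusted p under 0.05 together with a log2 fold change of 1 or more either way. Over all 17442 tested genes this criterion was met by 22.3%, with 10.6% lower and 11.7% higher in the dexamethasone libraries, a balance that turned to more lower than higher when libraries were scaled to equal totals. Control and dexamethasone values did not overlap in any of the 9, as was the case for 74.7% of all tested genes. The median log2 fold change of the 9 collagens was -1.72, against 0.0007 for all tested genes. At an adjusted p under 0.05 alone, all 9 passed, as did 72.5% of all tested genes. Leaving out each library in turn left the number called at 7.

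**Figure D1:**
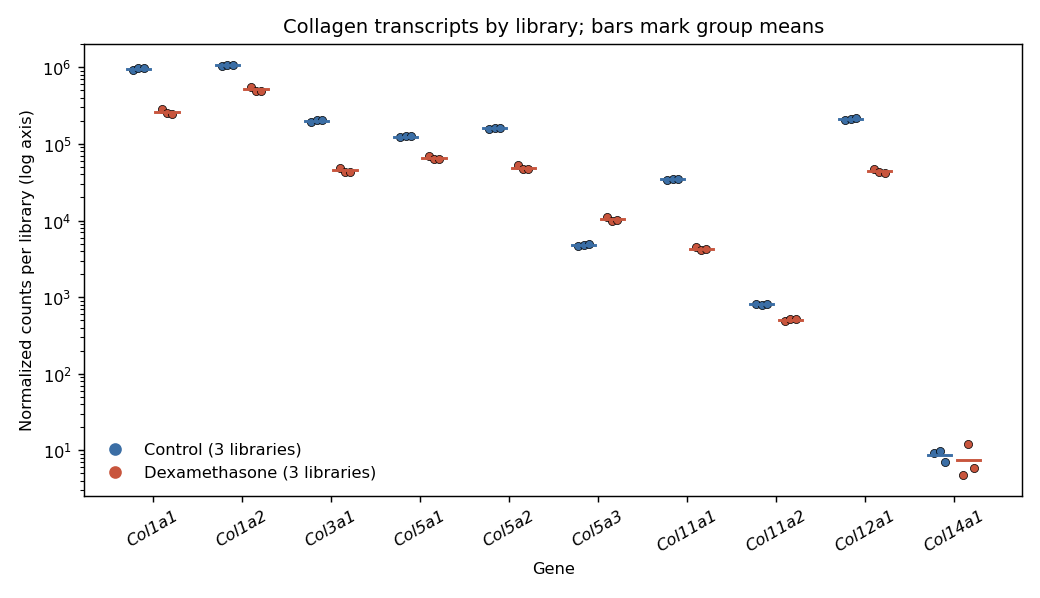
Normalized counts of the 10 collagen genes in each library, on a log axis, with control libraries in blue, dexamethasone libraries in red and a bar at each group mean (n = 3). Col5a3 is the only gene whose dexamethasone points lie above its control points, and the points of Col14a1, at 4.77 to 11.99 normalized counts, overlap.

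Type I chains were the most abundant of the 10. Col1a2, which encodes the alpha-2 chain, had 1024281, 1086854 and 1085158 normalized counts in the controls, taken in replicate order here and throughout, and 555458, 496246 and 496400 with dexamethasone. Every dexamethasone library lay below every control library, and dexamethasone replicate 1 was the highest of its group. The log2 fold change was -1.05 (SE, the standard error, 0.0698, adjusted p = 1.13e-12 by limma), which left 48.4% of the control mean. This value was close to the cut-off, and after quantile normalization it was -0.995 and no longer met it. Col1a1, which encodes the alpha-1 chain that is present in double dose in the type I heterotrimer, had 926460, 968159 and 991151 normalized counts in the controls and 281338, 254901 and 247337 with dexamethasone. The groups again did not overlap. Col1a1 fell by 1.88 on the log2 scale (SE 0.0642, adjusted p = 1.24e-18 by limma), to 27.2% of the control mean. By mean normalized count over all listed genes, Col1a2 went from position 2 to position 8 and Col1a1 from position 4 to position 14.

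Col3a1, the single chain of the type III homotrimer, fell as well. It had 193269, 204864 and 206191 normalized counts in the controls and 49028, 42847 and 43100 with dexamethasone, so that all 3 dexamethasone libraries lay well below the controls. The log2 fold change was -2.16 (SE 0.0496, adjusted p = 3.18e-22 by limma), and the mean was 22.3% of control. In GENCODE M21 the transcript Gm47302 overlaps 1.44% of the exon bases of Col3a1 on the same strand, and 0.672% of the 75-base windows of the Col3a1 transcript also occur in another gene.

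Of the 3 type V chains, 1 fell, 1 rose and 1 did not reach the fold-change cut-off. Col5a2 had 156246, 162894 and 161545 normalized counts in the controls and 52503, 46837 and 46989 with dexamethasone. It fell by 1.72 on the log2 scale (SE 0.0462, adjusted p = 8.72e-21 by limma), with no overlap between the groups. Col5a1, whose product forms the common type V heterotrimer with that of Col5a2, had 121494, 125892 and 127357 normalized counts in the controls and 69358, 63121 and 63639 with dexamethasone. These groups did not overlap either, and the mean was 52.3% of control, but the log2 fold change of -0.94 (SE 0.0445, adjusted p = 1.25e-15 by limma) did not reach the cut-off of 1. With the libraries scaled to equal totals it was -1.05 and reached it. Genes on the opposite strand, 2810430I11Rik and Gm13372, overlap 2.50% of the exon bases of Col5a1, and the strand setting of the count is not given in the sources used here.

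Col5a3, the least abundant type V chain, was the only one of the 10 that rose. It had 4622, 4725 and 4926 normalized counts in the controls and 11043, 9888 and 10186 with dexamethasone. All dexamethasone libraries exceeded all control libraries, again with dexamethasone replicate 1 highest. The log2 fold change was 1.12 (SE 0.0408, adjusted p = 4.6e-18 by limma), or 2.18-fold by the means of 4758 ± 155 (SD, n = 3) and 10372 ± 600 (SD, n = 3) normalized counts. It was 0.94 after quantile normalization and 0.97 when libraries were rescaled to the same total without the 10 collagens, both under the cut-off.

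Of the type XI chains, which are known from cartilage and co-assemble with type V chains in other tissues, Col11a1 had the largest decrease of the 10 genes. It had 33493, 35001 and 34929 normalized counts in the controls, and 4558, 4176 and 4189 with dexamethasone. No dexamethasone library came near a control library. Col11a1 fell by 3.001 on the log2 scale (SE 0.0382, adjusted p = 4.34e-27 by limma), an 8.003-fold decrease, and 140 of the 17442 tested genes had a lower log2 fold change. Its position by mean normalized count went from 278 in the controls to 4478 with dexamethasone.

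Col11a2, the partner chain, was far less abundant and had a smaller log2 fold change. It had 824, 798 and 814 normalized counts in the controls and 492, 514 and 519 with dexamethasone. These groups did not overlap, and here dexamethasone replicate 1 was the lowest of its group, unlike in the other 8 tested collagens. The log2 fold change of -0.67 (SE 0.063, adjusted p = 7.08e-10 by limma) was under the cut-off.

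The fibril-associated collagens were far apart in abundance. Col12a1, which binds type I fibrils and is made in tissues under mechanical load, had 204013, 209398 and 216407 normalized counts in the controls and 46946, 43002 and 42243 with dexamethasone. The groups were far apart, and the dexamethasone mean of 44063 ± 2525 (SD, n = 3) was 20.99% of control. The log2 fold change was -2.25 (SE 0.0459, adjusted p = 2.79e-23 by limma). Col14a1, its closest relative, had 10, 10 and 8 reads in the controls and 5, 11 and 5 with dexamethasone. The groups overlapped (exact two-sided permutation test of the 3 against 3 libraries, p = 0.6, where the smallest possible is 0.1), and no difference was detectable at this depth.

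Variation among replicates was small beside these differences. The coefficient of variation of the 9 tested collagens lay between 1.55% and 7.78% within a group. The median over the 10227 genes whose mean was 400 normalized counts or more was 2.87% in the controls and 3.62% with dexamethasone. Dexamethasone replicate 1 was the highest of its group in 8 of the 9 tested collagens, and in 47.8% of all tested genes. With each library left out in turn, the log2 fold changes ranged from -1.94 to -1.84 for Col1a1, from -1.10 to -1.02 for Col1a2, from -3.04 to -2.98 for Col11a1 and from 1.08 to 1.16 for Col5a3.

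To compare one collagen with another, normalized counts were divided by the length of the transcript with the longest coding sequence. On this per-kilobase level, Col1a2 was first in the controls with 199220 ± 6665 (SD, n = 3) and Col1a1 second with 162213 ± 5530 (SD, n = 3) normalized counts per kilobase. Col3a1 followed at 36204, Col5a2 at 24185, Col12a1 at 18238, Col5a1 at 14860, Col11a1 at 4496, Col5a3 at 778, Col11a2 at 151 and Col14a1 at 1.34. Type I collagen message was therefore well separated from the minor chains, and in the controls no neighbouring genes in this order overlapped across the 3 libraries. In the dexamethasone libraries, Col1a2 at 96491 ± 6384 (SD, n = 3) and Col1a1 at 44046 ± 3010 (SD, n = 3) kept their places. Col3a1 at 8086 ± 629, Col5a1 at 7777 ± 412 and Col5a2 at 7362 ± 487 (SD, n = 3 each) then lay within each other's spread as groups, in the same order within each library, and Col12a1 was at 3828 ± 219 (SD, n = 3). Col5a3 at 1695 ± 98.0 (SD, n = 3) stood above Col11a1 at 562 ± 28.3 (SD, n = 3), the reverse of the control order. By the length of all annotated exons, Col1a1 at 146568 normalized counts per kilobase stood above Col1a2 at 85742 in the controls. The order of the type I chains thus depended on the length used. With dexamethasone, the same length put Col5a1 at 7700 ± 408 above Col5a2 at 5086 ± 337 and Col3a1 at 4584 ± 356 (SD, n = 3 each). The order of these chains depended on the length as well.

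Ratios between chains chosen as partners in a trimer or a fibril were computed within each library, where scaling between libraries has no effect. In each of the 9 ratios the 3 control values and the 3 dexamethasone values did not overlap. Single genes did not overlap in 74.7% of all tested genes, and no such share was computed over other pairs of genes. The Col14a1 to Col12a1 ratio is among the 9, although the Col14a1 values of the groups overlapped. The exact two-sided permutation test gave p = 0.1 for each ratio (0.1 after Benjamini-Hochberg adjustment over the 9 ratios). This is the smallest p that 3 against 3 libraries allow. The ratio of Col1a1 to Col1a2 normalized counts was 0.904, 0.891 and 0.913 in the controls and 0.506, 0.514 and 0.498 with dexamethasone, a log2 difference of -0.84. All 3 dexamethasone libraries thus carried about the same lower proportion of Col1a1. The level of this ratio after length correction depended on the length used. By the transcript with the longest coding sequence it was 0.814 in the controls and 0.456 with dexamethasone on average. By the length of all annotated exons, Col1a1 had 146568 and Col1a2 85742 normalized counts per kilobase in the controls, and 39798 and 41529 with dexamethasone. The log2 difference between the groups was the same for either length, since a length divides both groups alike.

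Among the minor chains the ratios moved in both directions. Col5a3 relative to Col5a1 was 0.0381 ± 0.000575 (SD, n = 3) in the controls and 0.159 ± 0.00178 (SD, n = 3) with dexamethasone, a log2 difference of 2.06. Col5a1 relative to Col5a2 was 0.780 ± 0.00795 (SD, n = 3) and 1.34 ± 0.0176 (SD, n = 3). Col5a1 relative to Col1a1, the proportion of a fibril-starting chain to the main fibril chain, was 0.130 ± 0.00133 (SD, n = 3) and 0.2505 ± 0.00592 (SD, n = 3). These 3 ratios were higher in every dexamethasone library. Col11a1 relative to Col5a1 was 0.276 ± 0.0019 (SD, n = 3) in the controls and 0.0659 ± 0.00023 (SD, n = 3) with dexamethasone, and Col11a1 relative to Col11a2 was 42.5 ± 1.63 (SD, n = 3) and 8.48 ± 0.671 (SD, n = 3). For Col3a1 and Col12a1 relative to Col1a1, the log2 differences were -0.28 and -0.37. The ratio of Col14a1 to Col12a1 rests on at most 11 Col14a1 reads in a library and is not interpreted.

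**Figure D2:**
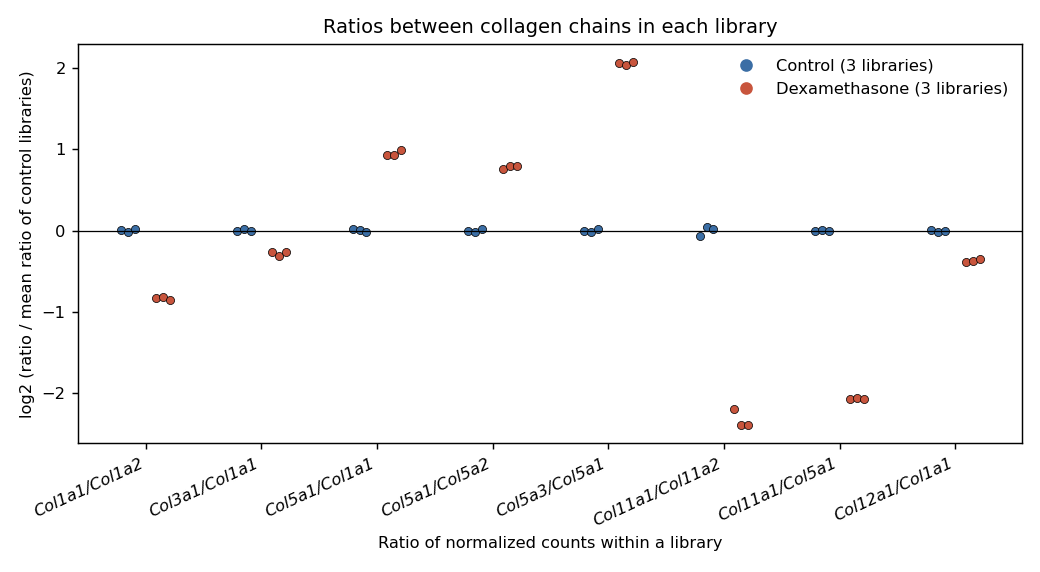
Ratio of the normalized counts of one collagen gene to another within each library, on the log2 scale relative to the mean control ratio, for 8 ratios and 3 libraries per group. Control points lie near 0, and the dexamethasone points lie lowest for Col11a1/Col11a2 at a difference of -2.33 and highest for Col5a3/Col5a1 at 2.06.

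The 10 collagens together took 3.50%, 3.52% and 3.64% of all reads in the control libraries and 1.25%, 1.17% and 1.13% in the dexamethasone libraries. The groups did not overlap, and the difference of -2.37 percentage points gave p = 0.1 in the exact two-sided permutation test, the smallest possible here. All 44 collagen genes of the table took 4.24% ± 0.0878 (SD, n = 3) of reads in the controls and 2.13% ± 0.1 (SD, n = 3) with dexamethasone.

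The make-up of the collagen message was described by collagen type, a breakdown chosen after the values had been seen. Type I took 61.4% ± 0.224 (SD, n = 3) of collagen reads in the controls and 43.2% ± 0.24 (SD, n = 3) with dexamethasone. Type III went from 6.10% to 2.50%, type V from 8.78% to 6.93%, type XI from 1.07% to 0.268%, and types XII and XIV together from 6.36% to 2.45%. The 10 collagens as a whole made up 83.7% ± 0.166 (SD, n = 3) of collagen reads in the controls and 55.4% ± 0.218 (SD, n = 3) with dexamethasone. Type VI, which forms beaded filaments rather than fibrils, took 12.1% ± 0.146 (SD, n = 3) and 37.9% ± 0.24 (SD, n = 3), and the basement membrane collagens of type IV took 1.57% and 3.73%.

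**Figure D3:**
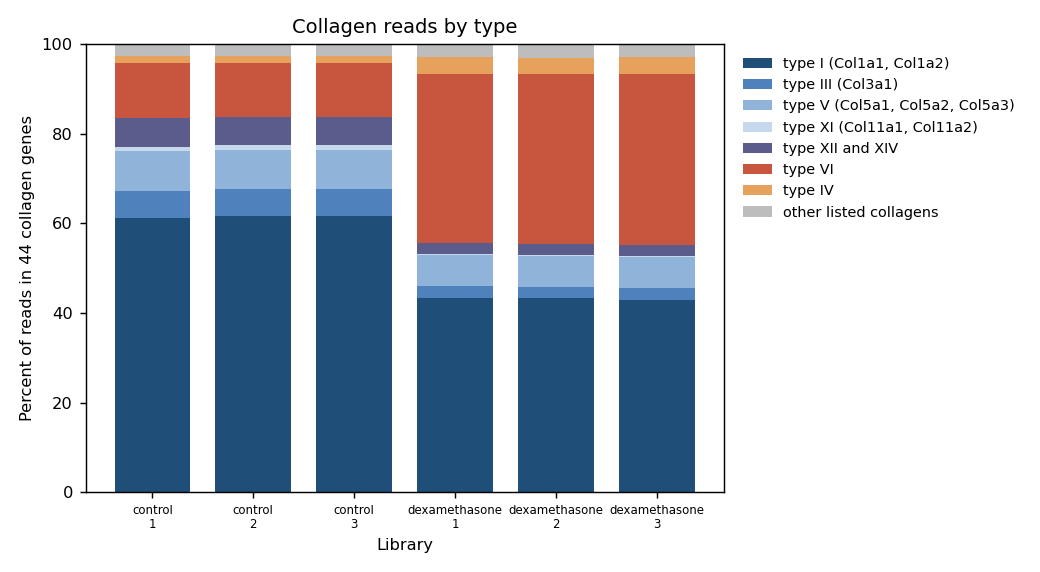
Stacked bars of the percent of reads in 44 collagen genes that fell in each collagen type, for the 3 control and 3 dexamethasone libraries. The blue segments of types I, III, V, XI, XII and XIV fill 83.7% of the control bars and 55.4% of the dexamethasone bars on average, and the red type VI segment 12.1% and 37.9%.

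Log2 fold changes of the other collagens lay on both sides of 0. Of the 34 other collagen genes in the table, 23 were tested, 7 rose, 5 fell and 11 did not meet the criterion, with a median log2 fold change of 0.18. Among the 3 other fibrillar collagens, Col24a1 fell from 127 ± 13.03 to 19.6 ± 2.87 normalized counts (SD, n = 3 each), a log2 fold change of -2.63 (adjusted p = 1.9e-11 by limma), and Col27a1 fell by 1.27 on the log2 scale (adjusted p = 2.41e-19 by limma). Col2a1, the main collagen of cartilage, rose from 1517 ± 23.4 to 5687 ± 428 normalized counts (SD, n = 3 each), with a log2 fold change of 1.90 (adjusted p = 1.15e-21 by limma). Of the other fibril-associated collagens, 3 of the 7 listed were tested and none met the criterion, with limma log2 fold changes of 0.64 for Col16a1, -0.53 for Col20a1 and -0.56 for Col9a3 and an adjusted p under 0.05 for each of the 3. Among the 13 tested network-forming and beaded-filament collagens, 5 rose and 2 fell. Col6a3 rose from 211245 to 425986 normalized counts (log2 fold change 1.011, adjusted p = 1.72e-14 by limma) while Col28a1, with few control reads, rose from 16.04 to 160 (log2 fold change 3.42, adjusted p = 3.46e-10 by limma). Col6a1 and Col6a2, which encode the partner chains of Col6a3, had log2 fold changes of 0.65 and 0.18, under the cut-off. The call of Col6a3 was at the edge of the cut-off, with a log2 fold change of 0.81 after quantile normalization, 0.90 at the same total, 0.994 without control replicate 1 and 0.97 without dexamethasone replicate 1. Col8a2, chosen after its values were seen, fell by 2.75 on the log2 scale, as did Col8a1 by 1.52, whereas Col4a1, chosen in the same way, rose by 1.48.

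**Figure D4:**
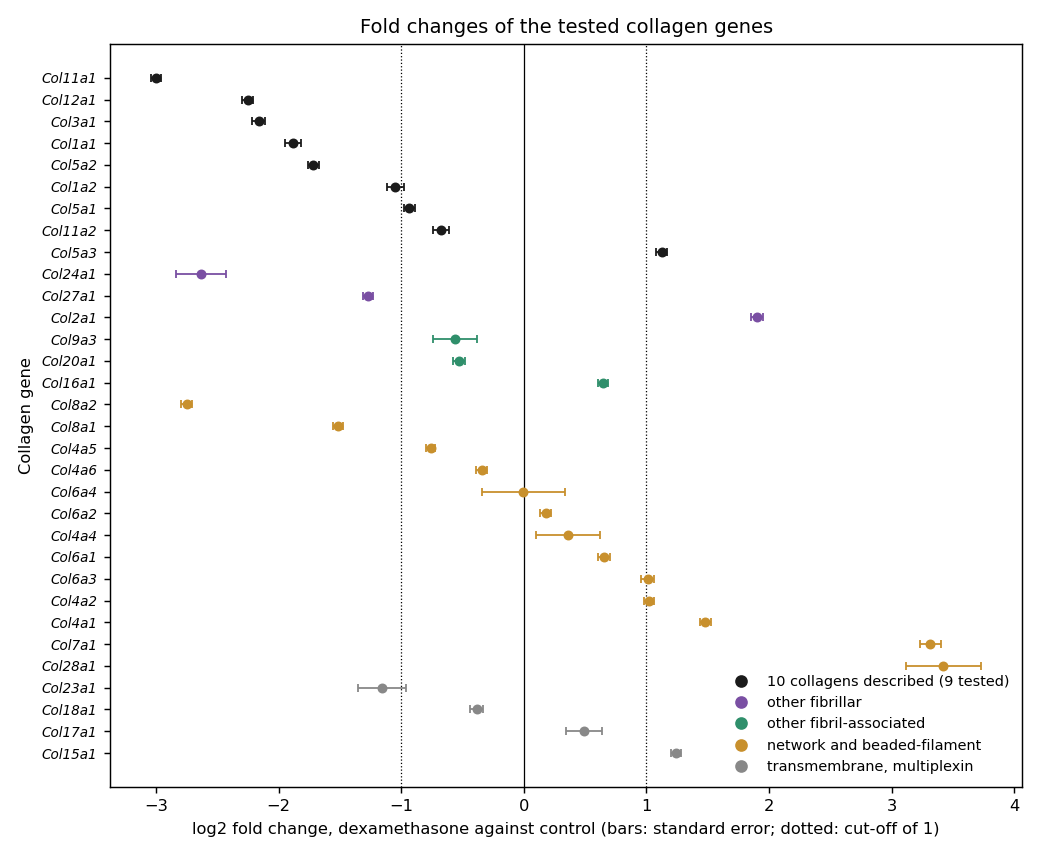
Log2 fold changes, dexamethasone against control, of the 9 tested genes described here (black) and the 23 other tested collagen genes, coloured by class. Horizontal bars are limma standard errors and dotted lines mark the cut-off of 1. The black points run from -3.001 for Col11a1 to 1.12 for Col5a3, with 8 of 9 left of 0, and the other collagens lie on both sides.

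Most of the enzymes and chaperones that prepare procollagen inside the cell were lower with dexamethasone, but few reached the fold-change cut-off. Of 20 hydroxylation and folding genes tested, 2 fell and none rose, beside 10.6% lower and 11.7% higher over all tested genes. Their median log2 fold change was -0.34. At a limma adjusted p under 0.05 alone, 15 were lower and 3 higher, and 35.2% of all tested genes were lower. Serpinh1, the collagen chaperone HSP47, had 89995 ± 1770 (SD, n = 3) normalized counts in the controls and 52912 ± 1306 (SD, n = 3) with dexamethasone, a log2 fold change of -0.77 (adjusted p = 6.59e-15 by limma) that did not reach the cut-off. P4hb, the beta subunit of prolyl hydroxylase, had a log2 fold change of 0.18 (adjusted p = 0.000248 by limma). Fkbp10, a collagen chaperone, had -0.54. P3h2, a prolyl 3-hydroxylase, fell by 1.45 on the log2 scale.

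Of 12 tested genes of procollagen cleavage and crosslinking, 4 rose and 1 fell, with a median log2 fold change of 0.24. Adamts2, the protease that removes the amino-terminal propeptide of types I and III, rose from 3971 ± 159 to 18398 ± 872 normalized counts (SD, n = 3 each), with a log2 fold change of 2.21 (adjusted p = 2.2e-24 by limma). Loxl3, a lysyl oxidase, rose by 1.75 on the log2 scale. Lox, the main crosslinking enzyme of collagen, had 71064 normalized counts in the controls and 118541 with dexamethasone, a log2 fold change of 0.74 under the cut-off, and Pcolce, which speeds removal of the carboxy-terminal propeptide, had -0.72.

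Of 16 tested genes whose products bind collagen fibrils or organize them, 10 fell and 1 rose, with a median log2 fold change of -1.24. Asporin (Aspn), a small leucine-rich proteoglycan that binds collagen, fell from 23799 ± 1486 to 206 ± 18.0 normalized counts (SD, n = 3 each), with a log2 fold change of -6.85 (adjusted p = 9.41e-31 by limma). Sparc (osteonectin), a collagen-binding protein of bone matrix, fell by 1.33 on the log2 scale. Fibronectin (Fn1), on whose network collagen fibrils are laid down, had 973308 ± 36042 (SD, n = 3) normalized counts in the controls and 879480 ± 51320 (SD, n = 3) with dexamethasone, a log2 fold change of -0.15 (adjusted p = 0.0744 by limma), and biglycan (Bgn) had -0.05 (adjusted p = 0.331 by limma).

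Among 8 tested collagen receptors, 2 rose and 2 fell. Itga11, the alpha subunit of a fibrillar collagen integrin, fell by 2.38 on the log2 scale, and Mrc2, an endocytic receptor that takes up collagen fragments, rose by 1.37. The discoidin domain receptor Ddr2 had a log2 fold change of 0.02 (adjusted p = 0.656 by limma). Of 5 tested collagen-degrading proteases, Mmp13 rose by 1.45 and 3 fell, Mmp14 by 1.24, Mmp2 by 1.02 and Mmp9 by 1.16 on the log2 scale. The most abundant of them, Mmp2, had 73812 ± 1754 (SD, n = 3) normalized counts in the controls. Mmp13 had 158 ± 23.6 (SD, n = 3) and Mmp9 20.6 ± 1.24 (SD, n = 3). Without control replicate 2 or dexamethasone replicate 2, Mmp2 was just under the cut-off, at -0.9995 and -0.987. Mmp9 was also under it without dexamethasone replicate 2, at -0.88, and at -0.70 when 10 rather than 1 was added before the log.

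Markers of other cell types were measured beside the collagens, and the part of those cell types in the differences was not tested. Of 8 tested tendon and fibroblast markers, 3 rose and 2 fell, and the summed level of the list was 178945 to 191763 normalized counts in the controls and 93010 to 99474 with dexamethasone, mostly Fmod. Pdgfra rose by 1.58 and Cd34 by 1.04 on the log2 scale, the latter at 0.93 with equal totals and then under the cut-off. Tnmd was not among the listed genes and Dpp4 was at 3 reads or fewer in every library. Scx, a transcription factor of tendon that marks cells rich in type I and type XII collagen, fell from 1206 ± 94.97 to 151 ± 14.9 normalized counts (SD, n = 3 each), with a log2 fold change of -2.99 (adjusted p = 3e-20 by limma). Of 7 tested smooth muscle and pericyte markers, none rose and 3 fell, and the summed level was 150334 to 158290 normalized counts in the controls and 22873 to 24384 with dexamethasone, mostly Acta2 in the controls and Acta2 and Cspg4 with dexamethasone. Acta2 fell by 3.54 and Notch3 by 1.27 on the log2 scale. Of the 13 chondrocyte markers, which bear on the type XI chains, 5 were tested, 2 rose and 2 fell, and the summed level was 6489 to 6938 in the controls and 22313 to 25190 with dexamethasone. That sum was mostly Sox9 and Col2a1, while Hapln1, a cartilage link protein, fell by 1.42 on the log2 scale. Acan, the main cartilage proteoglycan, had mean normalized counts of 1.92 in the controls and 2.89 with dexamethasone, and Col9a1, Matn1 and Ucma were at 3 reads or fewer in every library. The pan-hematopoietic list, in which 2 of 7 tested genes rose and 2 fell, summed to 6719 to 6979 normalized counts in the controls and 8123 to 8619 with dexamethasone, nearly all of it Arhgdib (log2 fold change 0.15). Within it, Cd53 rose from 15.7 ± 3.99 to 283 ± 24.8 normalized counts (SD, n = 3 each), with a log2 fold change of 4.11 (adjusted p = 6.6e-16 by limma). Itgb2 rose from 54.6 ± 10.2 to 503 ± 26.2 (SD, n = 3 each), with a log2 fold change of 3.20 (adjusted p = 4.91e-17 by limma). Laptm5 and Coro1a fell, with log2 fold changes of -1.49 and -1.77. Both were under the cut-off when 10 rather than 1 was added before the log. The endothelial list, in which 1 of 6 tested genes rose and 1 fell, summed to 872 to 1023 and 690 to 752, mostly Kdr and Ptprb, with Cdh5 and Tie1 at 3 reads or fewer in every library. Ptprb fell by 1.25 on the log2 scale, Esam rose by 1.20 from a control mean of 14.3 normalized counts, and Kdr had 0.25 (adjusted p = 0.00812 by limma). The skeletal muscle list, in which Acta1 alone of 3 tested genes fell, summed to 63.3 to 79.3 and 55.6 to 73.5.

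RefSeq promoters on GRCm38.p6 were at hand for 6 of the 10 genes. The 250 bases before the start site are shown for 3 genes that fell and for the 1 that rose, because members that moved together or apart can be compared there, and matches on either strand to TATAAA (known from core promoters), to CCAAT (bound by NF-Y) and to GGGCGG (bound by Sp1) are in capitals. They are given in the direction of transcription, for Col1a2 at chr6:4505368-4505617 (plus strand), Col3a1 at chr1:45311288-45311537 (plus strand), Col11a1 at chr3:114030290-114030539 (plus strand) and Col5a3 at chr9:20815068-20815317 (minus strand).
Col1a2: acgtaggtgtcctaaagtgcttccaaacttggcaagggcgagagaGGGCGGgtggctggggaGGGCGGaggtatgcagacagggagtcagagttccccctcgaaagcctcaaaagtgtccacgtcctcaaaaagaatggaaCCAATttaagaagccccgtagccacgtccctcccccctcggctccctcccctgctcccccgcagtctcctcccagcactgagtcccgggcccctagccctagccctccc
Col3a1: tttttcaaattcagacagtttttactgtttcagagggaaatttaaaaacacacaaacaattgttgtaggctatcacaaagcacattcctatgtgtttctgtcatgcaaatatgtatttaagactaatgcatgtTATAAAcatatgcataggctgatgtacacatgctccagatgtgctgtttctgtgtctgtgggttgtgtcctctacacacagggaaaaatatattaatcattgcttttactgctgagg
Col11a1: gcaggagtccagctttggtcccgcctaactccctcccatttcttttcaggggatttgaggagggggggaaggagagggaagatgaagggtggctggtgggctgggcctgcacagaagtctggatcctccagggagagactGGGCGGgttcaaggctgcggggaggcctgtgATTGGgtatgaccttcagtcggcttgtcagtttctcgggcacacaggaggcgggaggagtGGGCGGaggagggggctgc
Col5a3: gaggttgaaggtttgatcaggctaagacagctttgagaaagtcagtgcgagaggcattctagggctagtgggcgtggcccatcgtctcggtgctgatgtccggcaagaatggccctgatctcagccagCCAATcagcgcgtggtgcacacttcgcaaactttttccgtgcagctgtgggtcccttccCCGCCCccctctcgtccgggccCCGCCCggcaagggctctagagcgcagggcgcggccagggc

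Col1a2, Col11a1 and Col5a3 each held CCAAT and 2 copies of GGGCGG. At least 1 copy of CCAAT occurred in 33.8% of the 32851 promoter windows, and at least 1 of GGGCGG in 32.7%. Windows with 2 copies were not counted. Col1a2, Col11a1 and Col5a3 were also rich in G and C, at 62.0%, 62.4% and 62.8% of bases respectively. The Col3a1 window was unlike them, with 35.2% G and C against a median of 52.4% and with TATAAA, which occurred in 12.4% of windows. This match began 117 bases before the start site, and whether it acts as a core promoter element was not tested. Among the windows shown, the chain that rose and 2 of the chains that fell held the same of these motifs. Of the windows not shown, Col5a1 held GGGCGG, and Col11a2 held GGGCGG and, beginning 143 bases before the start site, TATAAA. Whether any of these motifs bears on the changes was not tested. The letters TGTGGT (the core that Runx factors bind), TGANTCA (an AP-1 site), AGAACA (which glucocorticoid receptor can bind) and the palindromic glucocorticoid response element were found in none of the 6 windows, and occurred in 14.05%, 6.75% and 16.1% of all windows and in 3 windows respectively. Col3a1 and Col5a2, which both fell, are neighbours on chromosome 1 on opposite strands with 0 RefSeq genes between them. The other 8 genes lie apart, on chromosomes 2, 3, 6, 9, 11, 15 and 17, with Col5a3 and Col12a1 both on chromosome 9.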

How the data were processed

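Bone cells from control and dexamethasone-treated mice (3 libraries each) were profiled with a stranded mRNA library kit. The submitters' processing notes name STAR 2.7.10a, DESeq2 1.36.0 and the build GRCm39, and neither the annotation release nor the strandedness used in counting is given in the sources used here. The values the authors deposited are a signal of reads per gene divided by a DESeq2 size factor per library (normalized counts). Deposited values were whole multiples of 1 read's worth (100% of values within 0.01), so read counts were recovered. Symbols, lengths and overlaps came from GENCODE M21 on GRCm38, matched by Ensembl identifier (28087 of 29616 genes). Sequence coordinates are GRCm38, not the build of the files.

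Genes averaging 10 normalized counts or more were compared as log2(normalized count + 1) with limma 3.58.1 (mean-variance trend, R 4.3.3) and Benjamini-Hochberg adjustment over 17442 genes, after the study's cut-offs. Fold changes are on that scale, which understates the change of low genes. Single values were compared by exact permutation tests. On simulated data for this comparison, limma recovered 191 of 191 genes changed 4-fold among 17204, with 1 false call. The simulation changed far fewer genes than were called here and used a fixed level of replicate noise. It held no smaller changes, so it does not bear on calls near the cut-off. The alternatives used edgeR 4.0.16 and DESeq2 1.42.0 on recovered reads, limma without the trend, other pseudocounts, filters and scalings, and each library left out. Named genes were the 10 collagens and, from each of 19 lists, the 3 most abundant tested genes and the called gene with the largest change, which the text names where they bear on the collagens. Bglap, Bglap2, Col4a1, Col8a1, Col8a2, Laptm5, Coro1a and Mmp9 were named outside this rule after their values were seen. So were the markers given as low (such as Acan, Cdh5 and Adipoq). The collagens and lists were chosen with earlier results of these data known. The design text calls the libraries biological replicates. Whether each came from 1 mouse or a pool is not stated, so p-values measure the spread between these libraries, which may be technical. Replicate libraries differed by more than sampling noise (chi-square per degree of freedom 3.27 to 26.1). A count of 0 allows up to 3 reads, which covers counting error only. No batch is given.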

Additional observations from a re-analysis of the deposited data

How the results depend on the processing

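The direction of all 9 tested collagens held under every alternative tried. Their adjusted p-values depended on the mean-variance trend. Without the trend, limma gave the same fold changes with adjusted p from 1.14e-06 for Col11a1 to 4.87e-05 for Col1a2. These are much larger than the values quoted with the trend. Col1a2 (-0.995) and Col5a3 (0.94) lost the fold-change cut-off after quantile normalization, Col5a3 (0.97) also at the same total without the 10 collagens, and Col5a1 passed it at the same total (-1.05) and without the 10 collagens (-1.08). The median log2 fold change of all tested genes was 0.0007 as reported, -0.11 at the same total, -0.15 without the 10 collagens and -0.07 after quantile normalization, and the fold changes quoted for the first pair of scalings include that shift. The balance of calls over all genes turned from 2037 higher and 1857 lower to 1775 and 2163 at the same total and to 1708 and 2294 without the 10 collagens. Between 5 and 9 collagens were called over all settings, 9 by adjusted p alone. Over all genes the number called was 3894, 2170 at a mean of at least 100 (1350 higher and 820 lower), 12645 by adjusted p alone, 3944 by edgeR and 3870 by DESeq2 on recovered reads (7 collagens each), and 3878 to 3910 when 1 library was left out. The count over the related lists was 66, and 63 to 67 without 1 library. The median of the transmembrane and multiplexin list changed from 0.05 to -0.06, and that of the collagen receptors from 0.07 to -0.05, at the same total. The difference in the share of reads was -2.50 percentage points without the mitochondrial genes, and -2.40 to -2.33 without 1 library. By exon-union length, an alternative added after seeing the data, 6 of 10 genes kept their place in the control order. With the replicate number as a block, 7 collagens and 3897 genes were called, against 7 and 3894 without the pairing. Same-numbered libraries did not deviate together (correlations -0.0999, -0.105 and -0.0199), so the numbers do not pair them, and the block changed no call among the collagens.

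Depth did not limit 9 of the 10 genes, the exception being Col14a1. The tables hold no protein, and 3 libraries per group cannot give a permutation p under 0.1.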

Other observations

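Outside the collagens, the called genes of the bone lists did not all go the way of Col1a1. Runx2 and Sp7, transcription factors required for osteoblast formation, fell by 1.75 and 1.86 on the log2 scale, whereas osteopontin (Spp1) rose from 33595 ± 988 to 1279674 ± 29571 normalized counts (SD, n = 3 each), a limma log2 fold change of 5.25. Its dexamethasone mean was above that of Col1a2. Dmp1, an osteocyte matrix protein, rose from 38.5 ± 2.66 to 5639 ± 326 normalized counts (SD, n = 3 each), a limma log2 fold change of 7.16, the only one of 4 tested osteocyte markers that met the criterion. Of the 4 tested transmembrane and multiplexin collagens, 1 rose, Col15a1 by 1.24 on the log2 scale, and 1 fell. Of the 4 tested marrow stromal markers, 2 rose and none fell, with Kitl (stem cell factor) higher by 2.89 on the log2 scale. Of the 3 tested adipocyte markers, 1 rose, Fabp4, a fatty acid binding protein, while Adipoq, Plin1 and Lpl stayed under a mean of 10 normalized counts and were not tested.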
